A study of Mus musculus with 4 samples.

Results

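The genes described here encode the proteins of the cytosolic ribosome. They were taken by symbol (RPL or RPS with a number, their A, X and L forms, RPLP0 to RPLP2 and RPSA) from the platform's annotation, which gave 54 genes of 14884 named ones. Of the 54, RPS6KL1 encodes a kinase-like protein that is no part of the ribosome, so the results rest on the other 53. By symbol alone, 35 of them (RPL) were assigned to the large and 18 (RPS) to the small subunit. Presence of each product, such as that of RPL7L1, in the mature ribosome was not checked. Their 61 probe sets were reduced to the brightest per gene. RPLP0, RPLP1, RPLP2, RPL5, RPSA and RPS27A had no named probe set and were not analysed here. Expression was measured on single-colour arrays in SW620 cells, a human colon carcinoma line, grown in RPMI medium with serum. The F5446 group was exposed to 50 nM F5446, a small molecule inhibitor selective for the histone methyltransferase SUV39H1, for 2 days, and the Ctrl group was untreated. Each group held 2 arrays. The series names them biological replicates, but no label gives separate cultures, and the p-values therefore rest on the array-to-array spread alone.

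Each cytosolic ribosome joins a large subunit, which forms peptide bonds and passes the growing chain through an exit tunnel, to a small subunit, which reads the mRNA. Nearly every ribosomal protein is present as a single copy per ribosome, and the mRNAs of these proteins share a 5′ terminal oligopyrimidine tract (TOP) through which mTOR signalling and the RNA-binding protein LARP1 control their translation. Several ribosomal proteins have a paralog from a second gene, and most have processed pseudogenes of close sequence, so a probe set may also read a near copy. Array signal measures mRNA and not its translation. In RNA from whole cultures, a change per cell and a change in the share of cells with the mRNA cannot be told apart.

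The arrays carried a deposited log2 signal for 53617 probe sets, with array medians of 4.43 and 4.44 in F5446 cells and 4.40 and 4.41 in Ctrl cells. Replicate arrays correlated at r = 0.9949 for F5446 and 0.9936 for Ctrl across the named genes, and r was 0.9431 to 0.9446 between groups; genes are not independent replicates. Of 14 listed epithelial markers 12 were measured, and EPCAM had a log2 signal of 10.23 and 10.34 in F5446 cells, against 10.97 and 11.11 in Ctrl cells. Of these 12, 2 rose (16.7%, against 18.2% of all named genes) and 6 fell (50%, against 22.7%). The summed linear signal of the 12 was 5117 and 5147 in F5446 cells, against 8997 and 8980 in Ctrl cells. Of 15 markers of other cell types 7 were measured. Only 2 of these, LYZ and LUM, had a mean log2 signal of at least 4.434, the median of all probe set means. The summed linear signal of the 7 was 105 and 107 in F5446 cells, against 297 and 285 in Ctrl cells. LYZ and LUM fell (28.6% of the 7, against 22.7% of all named genes) and the other 5 did not pass. The part of these marker changes in the ribosomal results was not tested.

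More ribosomal protein mRNAs rose than fell after F5446, and most changes were small. Of the 53 genes, 18 rose (34.0%), where 18.2% of all named genes rose, and 5 fell (9.43%), where 22.7% of all named genes fell. The other 30 did not pass the test, limma's moderated test with Benjamini-Hochberg adjustment over all named genes at a threshold of 0.05. The median log2 fold change of the 53 was 0.15, and that of all named genes was -0.05. The change stayed within 1.2-fold in 38 of the 53 (71.7%), a limit that 48.7% of all named genes kept. A change of 2-fold or more was seen in 2 of the 53 (3.77%), both upward, and in 12.7% of all named genes. The median SD between replicate arrays was 0.06 on the log2 scale. The counts depend on how the arrays are scaled, as described further on. Without F5446 replicate 1, 9 genes rose and 1 fell (13.9% and 17.3% of all named genes), and without F5446 replicate 2, 9 rose and 2 fell (14.1% and 17.6%). Without Ctrl replicate 1, 12 rose and 4 fell (16.3% and 18.8%), and without Ctrl replicate 2, 12 rose and 2 fell (15.8% and 19.4%). In these fits 1 group holds a single array, so the other group alone gives a gene's spread, and a call can be lost with the fold change kept. A variance model without an intensity trend gave 8 rises (15.1% of the 53, against 16.1% of all named genes) and 1 fall (1.89%, against 20.9%), so the higher share of rises was not seen there. Testing all probe sets gave 9 rises and 1 fall (17.0% and 1.89%, against 11.7% and 10.2% of the probe sets). Of the 53 genes 38 had a mean log2 signal of at least 7.42, the upper quartile of named genes. Tested among such bright genes alone, 17 of the 38 rose (44.7%, against 40.3% of all bright genes) and 5 fell (13.2%, against 38.6%), so the share of rises was near that of genes of like signal.

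**Figure D1:**
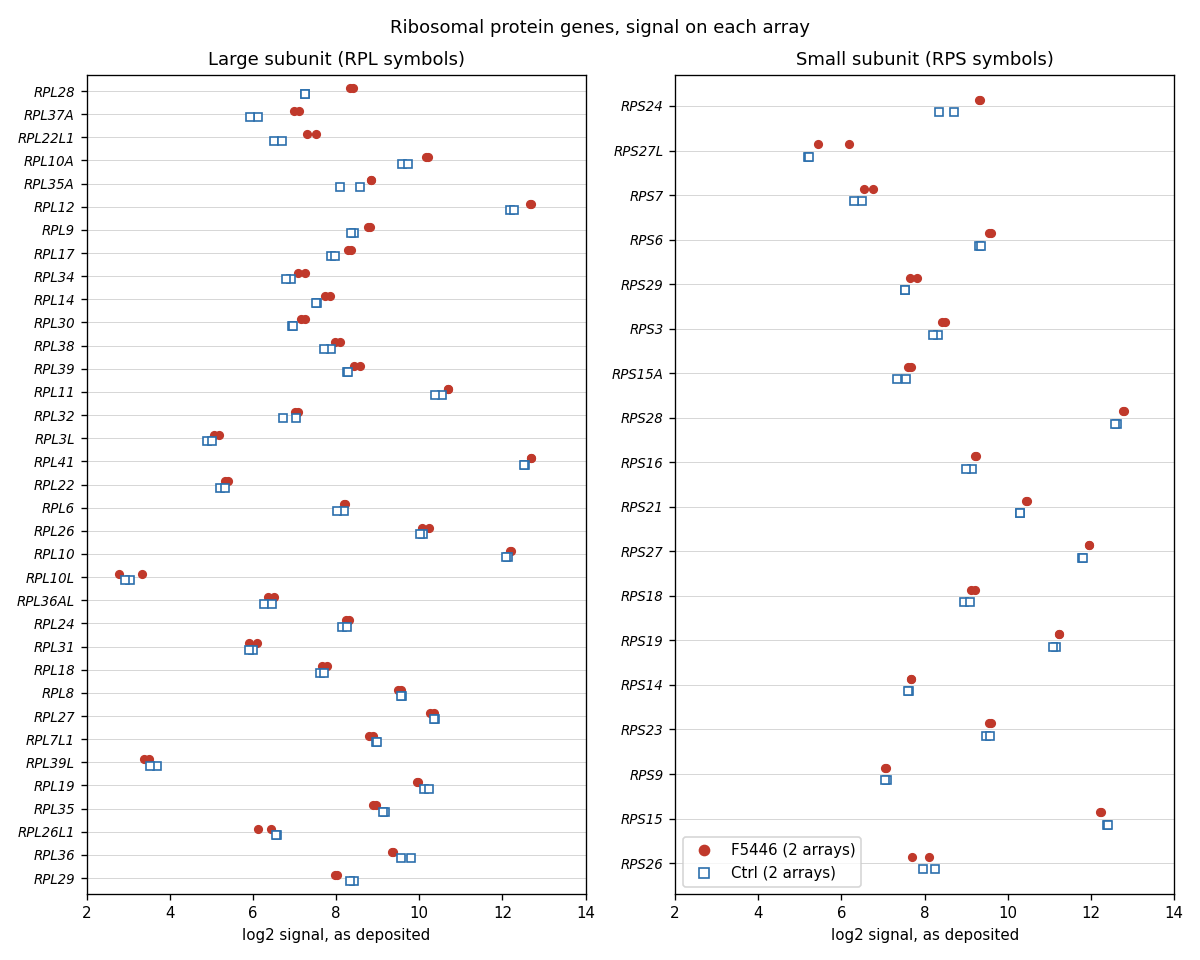
Deposited log2 signal (horizontal axis) of 35 large subunit and 18 small subunit genes on each array, with filled circles for the 2 F5446 arrays and open squares for the 2 Ctrl arrays, genes ordered by fold change. RPL28, RPL37A, RPL22L1 and RPS24 show clear gaps, and in most other rows the groups lie close together.

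Among large subunit genes the largest rises were those of RPL28 and RPL37A. RPL28, a protein that budding yeast ribosomes lack, had a log2 signal of 8.34 and 8.40 in F5446 cells, against 7.25 and 7.25 in Ctrl cells. The groups lay far apart and each pair of replicates nearly coincided. It rose 2.18-fold, or 1.12 ± 0.08 on the log2 scale (SE, adjusted p = 5.23e-06). RPL37A, a zinc-finger protein of the large subunit, gave 6.99 and 7.11 in F5446 cells, against 6.12 and 5.94 in Ctrl cells. Both F5446 arrays again lay above both Ctrl arrays, and the gene rose 2.03-fold (log2 fold change 1.02 ± 0.12, SE, adjusted p = 9.54e-05). RPL22L1, the paralog of the RNA-binding protein RPL22, gave 7.31 and 7.51 in F5446 cells, against 6.51 and 6.69 in Ctrl cells. It rose 1.75-fold (0.81 ± 0.11, SE, adjusted p = 0.00036), again with no overlap.

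RPL10A, which forms the L1 stalk where spent tRNA leaves, had a log2 signal of 10.17 and 10.21 in F5446 cells, against 9.58 and 9.74 in Ctrl cells, and rose 1.44-fold (adjusted p = 0.000183). RPL12, at the base of the stalk that recruits translation factors, gave 12.68 and 12.67 in F5446 cells, against 12.17 and 12.28 in Ctrl cells. Although among the brightest members, it rose 1.36-fold or 0.44 ± 0.05 as log2 (SE, adjusted p = 4.27e-05). RPL9, which lies close to the factor-binding site, gave 8.77 and 8.81 in F5446 cells, against 8.44 and 8.35 in Ctrl cells, a 1.32-fold rise (adjusted p = 0.00179). RPL17, which lines the exit tunnel, gave 8.36 and 8.29 in F5446 cells, against 7.87 and 7.98 in Ctrl cells. It rose 1.32-fold (adjusted p = 0.00348), and its adjusted p was 0.0543 without F5446 replicate 1.

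RPL35A, mutated in some families with Diamond-Blackfan anaemia, gave 8.85 and 8.85 in F5446 cells, against 8.59 and 8.09 in Ctrl cells. The 2 F5446 arrays coincided while the Ctrl arrays spread widely (log2 SD 0.35), and the 1.43-fold rise (adjusted p = 0.0146) missed the threshold when F5446 replicate 1 (0.129) or replicate 2 (0.126) was left out, with the log2 fold change of RPL35A still 0.51. Without Ctrl replicate 2 it was 0.27 (adjusted p = 0.0458). RPL34 gave 7.08 and 7.25 in F5446 cells, against 6.91 and 6.79 in Ctrl cells, a rise of 0.32 on the log2 scale (adjusted p = 0.0411). This call was lost whichever array was left out, with a log2 fold change of 0.23 to 0.40 and an adjusted p of 0.0703 to 0.27, and also with a replicate block (0.0618). RPL11 belongs to the 5S ribonucleoprotein that binds MDM2 when ribosome assembly is disturbed. It gave 10.70 and 10.68 in F5446 cells, against 10.55 and 10.39 in Ctrl cells. Its 1.17-fold rise (adjusted p = 0.0184) was lost without Ctrl replicate 2 (0.117) and without F5446 replicate 1 (0.135) or 2 (0.108). The remaining large subunit genes that rose, chosen after their values were seen except for RPL39, were RPL14 (log2 fold change 0.27), the tunnel protein RPL39 (0.23) and RPL41 (0.15), whose product is a very small peptide at the subunit interface. Leaving out any 1 array ended the calls of RPL14 (log2 fold change 0.21 to 0.32, adjusted p 0.0774 to 0.231) and RPL39 (0.15 to 0.31, adjusted p 0.0586 to 0.314). For RPL41 this held without Ctrl replicate 2 (0.0629), F5446 replicate 1 (0.0544) or F5446 replicate 2 (0.0746).

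In the small subunit RPS24 moved most. RPS24, which acts in maturation of the small subunit's rRNA and is mutated in some families with Diamond-Blackfan anaemia, had a log2 signal of 9.30 and 9.33 in F5446 cells, against 8.70 and 8.34 in Ctrl cells. The groups did not overlap, although the Ctrl arrays differed by more than the F5446 arrays. It rose 1.74-fold (log2 fold change 0.80 ± 0.11, SE, adjusted p = 0.00028). RPS6, the substrate of the S6 kinases, gave 9.55 and 9.58 in F5446 cells, against 9.30 and 9.34 in Ctrl cells. Its rise was 1.18-fold (adjusted p = 0.00995) and was lost without Ctrl replicate 1 (0.0557), F5446 replicate 1 (0.0594) or F5446 replicate 2 (0.086). RPS28, chosen after its values were seen, lies near the path by which mRNA leaves the small subunit. It gave 12.80 and 12.77 in F5446 cells, against 12.62 and 12.58 in Ctrl cells, a 1.13-fold rise (adjusted p = 0.00363). RPS21, also chosen after its values were seen, and RPS27 each rose 1.11-fold. The RPS21 call was lost whichever array was left out (adjusted p 0.118 to 0.229). The RPS27 call was lost without Ctrl replicate 1 (0.0967), F5446 replicate 1 (0.0998) or F5446 replicate 2 (0.0959). RPS3, a protein of the mRNA entry channel that also acts in DNA repair, gave 8.41 and 8.49 in F5446 cells, against 8.31 and 8.20 in Ctrl cells, and did not pass (log2 fold change 0.19 ± 0.08, SE, adjusted p = 0.0866).

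Of the 5 genes that fell, 4 encode large subunit proteins. RPL29, a heparin-binding protein of the large subunit, had a log2 signal of 7.97 and 8.01 in F5446 cells, against 8.42 and 8.33 in Ctrl cells. The groups lay well apart, and the log2 fold change was -0.38 ± 0.08 (SE, adjusted p = 0.00326). RPL36 gave 9.36 and 9.36 in F5446 cells, against 9.56 and 9.79 in Ctrl cells (log2 fold change -0.32, adjusted p = 0.0116). RPL35, a protein at the mouth of the exit tunnel where factors meet the nascent chain, gave 8.88 and 8.95 in F5446 cells, against 9.19 and 9.13 in Ctrl cells (-0.24, adjusted p = 0.0182). RPL19, which contacts the small subunit through an intersubunit bridge, gave 9.94 and 9.97 in F5446 cells, against 10.10 and 10.23 in Ctrl cells (-0.21, adjusted p = 0.0221). In all 4 the F5446 arrays lay below both Ctrl arrays. RPS15, a small subunit protein near the decoding site, gave 12.22 and 12.24 in F5446 cells, against 12.38 and 12.41 in Ctrl cells (-0.16, adjusted p = 0.0082).

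With 1 array left out, when the other group alone gives the spread, falls other than that of RPL29 missed the threshold while their log2 fold changes stayed below 0. The RPL36 call was lost without Ctrl replicate 2 (adjusted p = 0.0771) and without F5446 replicate 1 (0.0963) or 2 (0.101), with log2 fold changes of -0.20, -0.32 and -0.31. Those of RPL35 ran from -0.28 to -0.20, those of RPL19 from -0.27 to -0.15 and those of RPS15 from -0.18 to -0.15. RPL35 lost it without Ctrl replicate 1 (0.0949), F5446 replicate 1 (0.141) or F5446 replicate 2 (0.0601), and RPL19 without Ctrl replicate 2 (0.137), F5446 replicate 1 (0.147) or F5446 replicate 2 (0.1). The RPS15 call was lost without Ctrl replicate 2 (0.0582) or F5446 replicate 1 (0.069). With the arrays centred on the named genes, only RPL29 of these 5 passed (log2 fold change -0.26, adjusted p = 0.026), and the others lay between -0.04 (RPS15) and -0.19 (RPL36). RPL29 passed in all 14 alternatives tried. So did the rises of RPL28, RPS24, RPL10A, RPL12 and RPL9, and those of RPL37A and RPL22L1 in the 13 alternatives that tested them, since a test of the brightest genes alone left these 2 out.

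**Figure D2:**
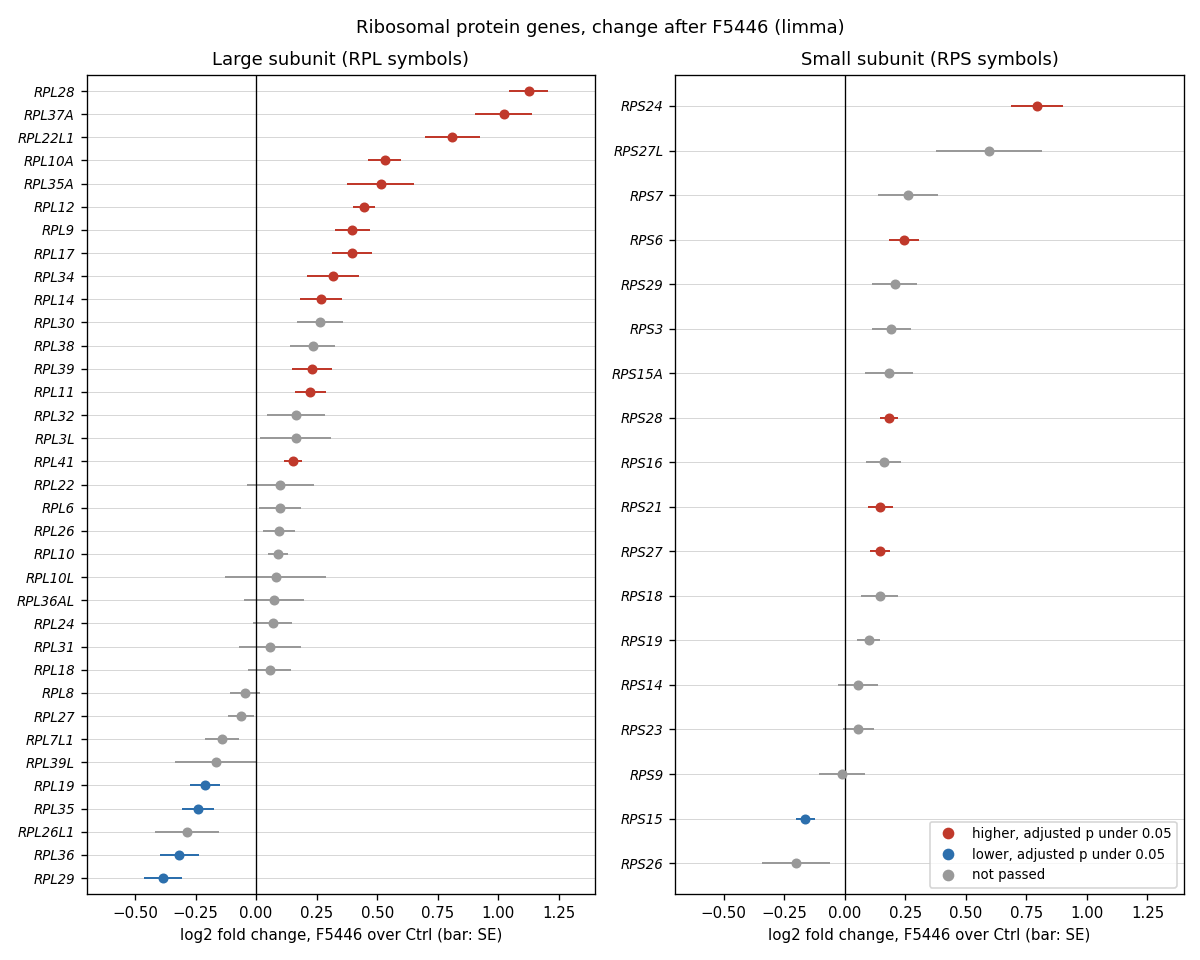
Log2 fold change of F5446 over Ctrl for each ribosomal protein gene (points, with SE bars from limma), large subunit on the left and small subunit on the right. Red points rose, blue points fell and grey points did not pass at an adjusted p of 0.05. Of the 35 large subunit genes 13 are red and 4 blue, and of the 18 small subunit genes 5 are red and 1 is blue.

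The 30 genes that did not pass spanned log2 fold changes of -0.28 to 0.60, of which 23 were above 0. In 15 of them both F5446 arrays lay above both Ctrl arrays, in 4 both lay below, and in 11 the groups overlapped. Over all 53 genes, 33 had both F5446 arrays above and 9 had both below, where 28.4% of all named genes had both above and 37.7% both below. RPS26, chosen after its values were seen, shows a change within the replicate spread. It gave 7.70 and 8.09 in F5446 cells, against 7.96 and 8.24 in Ctrl cells, and did not pass (log2 fold change -0.20 ± 0.14, SE, adjusted p = 0.314). RPS6KL1, the kinase-like gene that shares the symbol pattern, gave 6.29 ± 0.06 in F5446 cells and 6.14 ± 0.19 in Ctrl cells (mean and SD, n = 2 each), with overlapping arrays, and did not pass in limma's test (adjusted p = 0.432).

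RPS28, RPL41, RPL12, RPS15 and RPL10 had a mean log2 signal of at least 12, in a table whose maximum was 13.78. Of these 5, 3 rose and 1 fell, where 18.2% of all named genes rose and 22.7% fell. Of all bright genes tested alone 40.3% rose and 38.6% fell, and 5 genes are too few to compare shares. The median log2 fold change of the 5 was 0.15. The other 48 had a median of 0.15 too. Across the 53 genes the correlation of fold change with mean signal was r = -0.08 (Spearman's rho -0.10), and these points share arrays and scaling. Signal of different probe sets is not a measure of relative mRNA abundance.

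**Figure D3:**
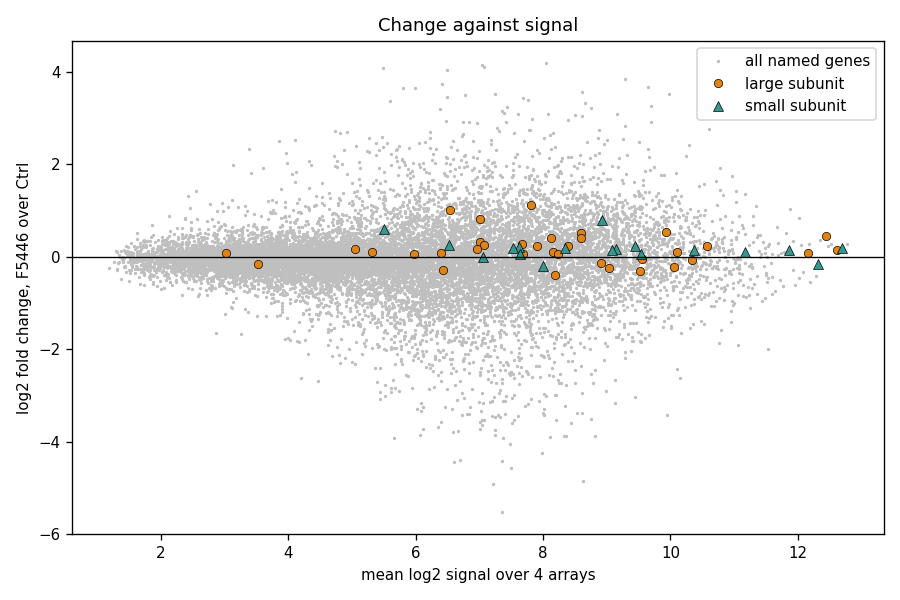
Log2 fold change of F5446 over Ctrl (vertical axis) against the mean log2 signal over 4 arrays (horizontal axis) for 14884 named genes in grey, large subunit genes as circles and small subunit genes as triangles. The ribosomal protein genes form a narrow band, mostly just above 0, within the much wider cloud of all genes.

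As deposited, the mean changes of large and small subunit genes differed by less than the replicate spread. The mean log2 signal over large subunit genes minus that over small subunit genes was -0.91 and -0.90 on the F5446 arrays, against -0.90 and -0.91 on the Ctrl arrays. The groups overlapped. The mean log2 fold change was 0.175 in the large subunit and 0.172 in the small subunit, a difference of 0.0029, below its replicate SD of 0.008. This did not hold after quantile normalization, where large minus small was -0.8993 and -0.9018 on the F5446 arrays, against -0.9158 and -0.9219 on the Ctrl arrays, without overlap (difference 0.0184). With dim genes left out the difference (large against small subunit) was 0.0161, also above that SD. With averaged probe sets the sign was opposite, with mean changes of 0.171 in the large and 0.180 in the small subunit. The distributions differed in shape. Large subunit changes ran from -0.38 to 1.12 with a median of 0.10 and 26 of 35 above 0. Small subunit changes ran from -0.20 to 0.80 with a median of 0.15 and 15 of 18 above 0. In the large subunit 13 genes (37.1%) rose and 4 (11.4%) fell, and in the small subunit 5 (27.8%) rose and 1 (5.56%) fell. Of all named genes 18.2% rose and 22.7% fell. Tested among bright genes alone, 47.8% of large and 40% of small subunit genes rose, near the 40.3% of all bright genes. In that test 17.4% and 6.67% fell, against 38.6%. Whether these shares differ between the subunits was not tested.

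Groups of proteins that share a place or a disease were counted beside the 34.0% of the 53 genes that rose and the 9.43% that fell, and the 18.2% and 22.7% of all named genes. Of 9 listed proteins around the tunnel exit 8 were measured. RPL17 and RPL39 rose, RPL19 and RPL35 fell, and RPL22, RPL26, RPL31 and RPL38 (the last 2 chosen after their values were seen) did not pass, which is 25% each way with a median of 0.10. Of 14 listed proteins of the small subunit head 7 were measured, with RPS28 higher, RPS15 lower and 5 not passing, or 14.3% each way (median 0.16). Of 19 listed Diamond-Blackfan anaemia genes, mutation of which impairs red cell formation, 15 were measured. RPS24, RPL35A, RPL11, RPS28 and RPS27 rose (33.3%) and RPL35 fell (6.67%), and the median was 0.15. The groups are small and their shares were not tested against the others.

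Within paralog pairs the change of one gene was set against that of its partner on the same array, which is unaffected by any scaling that adds a constant to an array. Both genes were measured in 5 of 8 pairs, and with 2 arrays a group an exact permutation test cannot give a two-sided p below 0.333. RPL22L1 and RPL22 diverged most. RPL22 gave 5.34 and 5.40 in F5446 cells, against 5.22 and 5.32 in Ctrl cells, and did not pass (adjusted p = 0.647), while RPL22L1 rose. The log2 difference RPL22L1 minus RPL22 was 1.98 and 2.11 on the F5446 arrays, against 1.29 and 1.37 on the Ctrl arrays. It was higher on both F5446 arrays by 0.71 on average, a 1.64-fold change in the ratio, with SDs of 0.09 and 0.05 (exact permutation p = 0.333, or 0.417 adjusted over the 5 pairs).

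RPL39L, the paralog of the tunnel protein RPL39 best known from testis, was dim, with a log2 signal of 3.39 and 3.50 in F5446 cells, against 3.70 and 3.53 in Ctrl cells, and did not pass (adjusted p = 0.518). The difference RPL39L minus RPL39 was -5.04 and -5.08 on the F5446 arrays, against -4.58 and -4.76 on the Ctrl arrays. RPL39L lay below the median of all probe sets, 4.434, so this difference has no reliable size. RPL26L1 gave 6.45 and 6.13 in F5446 cells, against 6.58 and 6.56 in Ctrl cells (adjusted p = 0.127), and RPL26 gave 10.07 and 10.23 in F5446 cells, against 10.08 and 10.03 in Ctrl cells (0.327). Neither passed. The difference RPL26L1 minus RPL26 was -3.62 and -4.10 on the F5446 arrays, against -3.50 and -3.47 on the Ctrl arrays, so that most of the mean shift of -0.38 came from F5446 replicate 2, and without that array the shift was -0.14. Of the 3 pairs with both genes above that median, RPL22L1 and RPS27L gained on their partners on both F5446 arrays and RPL26L1 lost.

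RPS27L, which p53 induces in human cells, gave 5.44 and 6.18 in F5446 cells, against 5.20 and 5.23 in Ctrl cells. The F5446 arrays lay above the Ctrl arrays but far from each other, and the gene did not pass (log2 fold change 0.60 ± 0.22, SE, adjusted p = 0.058). Its partner RPS27 gave 11.94 and 11.94 in F5446 cells, against 11.78 and 11.81 in Ctrl cells. RPS27L minus RPS27 was higher by 0.45 on average (exact permutation p = 0.333), by 0.82 without F5446 replicate 1 and by 0.08 without F5446 replicate 2. RPL10L, a paralog of RPL10 known from testis, lay near the floor of the table, at 2.79 and 3.34 in F5446 cells, against 3.04 and 2.93 in Ctrl cells (adjusted p = 0.822). Its partner RPL10 gave 12.19 and 12.21 in F5446 cells, against 12.13 and 12.08 in Ctrl cells (0.116). RPL10L minus RPL10 overlapped between the groups, and its mean difference ran from -0.27 to 0.25 with 1 array left out.

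The other paralogs, RPL3L, RPL7L1 and RPL36AL, had no measured partner and did not pass. RPL3L, the form of RPL3 found in heart and skeletal muscle, gave 5.06 and 5.19 in F5446 cells, against 4.90 and 5.02 in Ctrl cells (adjusted p = 0.456). RPL7L1 gave 8.89 and 8.79 in F5446 cells, against 8.97 and 8.99 in Ctrl cells (0.148). RPL36AL, which differs little in sequence from RPL36A, gave 6.36 and 6.51 in F5446 cells, against 6.26 and 6.47 in Ctrl cells (0.713).

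**Figure D4:**
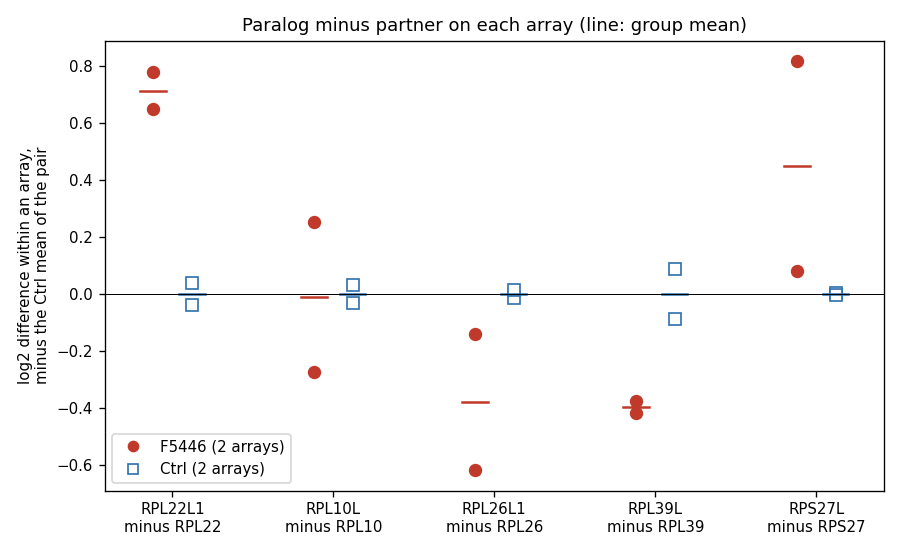
Log2 signal of the paralog minus that of its partner on each array, with the Ctrl mean of the pair subtracted, for the 2 F5446 arrays (filled circles) and the 2 Ctrl arrays (open squares), and lines at the group means. RPL22L1 minus RPL22 is higher by 0.71 with replicates close together, and RPS27L, RPL26L1 and RPL10L show F5446 arrays far from each other.

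RPL19, RPL39, RPL41 and RPS18 had more than 1 probe set, 7 extra ones in all. For RPS18, chosen after its values were seen, the brighter one had a log2 fold change of 0.14 and the dimmer one of 0.42 (limma adjusted p over all probe sets = 0.351 and 0.0227). For RPL19 the values were -0.21 and -0.38, and for RPL39 0.23 and 0.21, so the direction was shared in these 3 genes. The 5 probe sets of RPL41 changed by 0.15, 0.00, -0.04, 0.19 and 0.21, the first being the brightest, and differed in sign.

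How many members were called varied with the scaling of the arrays, besides the variance model and the set of probe sets tested, as given above. As deposited, the median of the named genes was 5.50 and 5.52 on the F5446 arrays, against 5.64 and 5.64 on the Ctrl arrays, a shift of -0.13. Centring each array on that median moved every fold change up by the same amount, and 31 of the 53 genes then rose and 1 fell, where 23.0% of all named genes rose and 18.4% fell. The median of the 53 became 0.27, against 0.08 for all named genes. Both F5446 arrays then lay above both Ctrl arrays in 43 of the 53, a pattern that 40.0% of all named genes showed, and below both in 5, against 28.0%. The median over all probe sets moved the other way, by 0.03, and centring on it left 14 of the 53 higher and 5 lower (17.4% and 24.1% of all named genes). Quantile normalization gave 24 higher and 5 lower (20.9% and 20.1% of all named genes). It set RPL41 and RPS28, at 0.15 and 0.18 as deposited, to a log2 fold change of exactly 0. Quantile normalization keeps only a gene's rank on each array, so such a 0 reflects ranks and not equal deposited signal. Under each of these scalings the share of ribosomal protein genes that rose was above that of all named genes, and the share that fell was below it. The scalings were not compared with genes of like signal, beside which the excess of rises was small as deposited.

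The subunits' shares of genes past the threshold moved with the scaling, and were not tested against each other. As deposited, 37.1% of large and 27.8% of small subunit genes rose (18.2% of all named genes). After centring on all probe sets 28.6% and 22.2% rose (17.4% of all named genes). Centring on the named genes adds the same amount to every gene. It left 48.6% of large and 77.8% of small subunit genes higher (23.0% of all named genes). After quantile normalization 42.9% and 50.0% rose (20.9% of all named genes). As deposited, the interquartile range of log2 fold changes ran from 0.07 to 0.20 in the small subunit and from 0.01 to 0.29 in the large subunit. The difference between the subunit means was 0.0029 under both centrings and 0.0184 after quantile normalization.

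**Figure D5:**
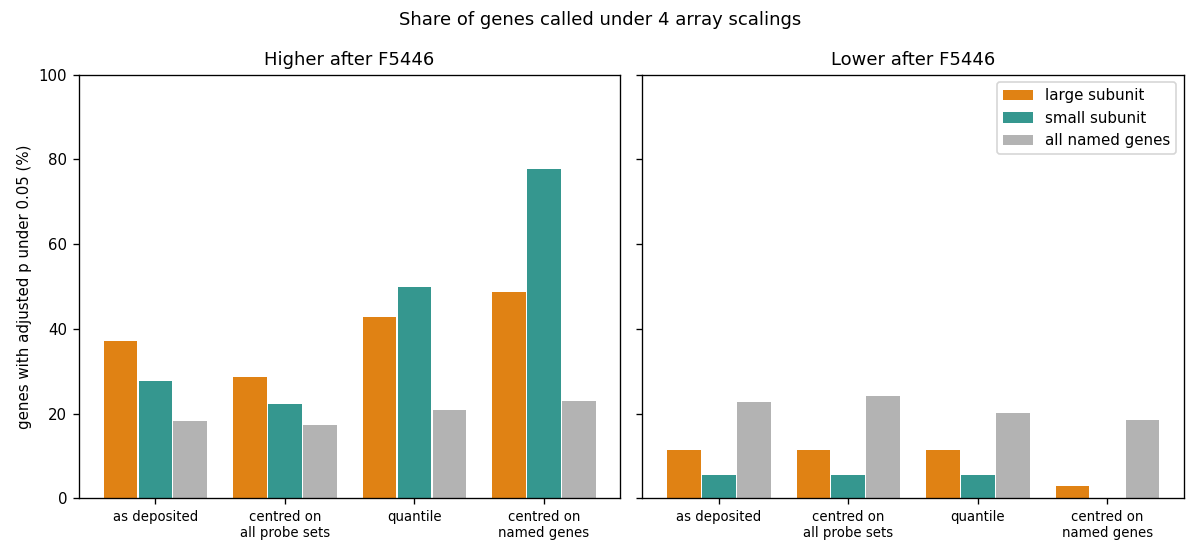
Percentage of large subunit genes, small subunit genes and all named genes with an adjusted p under 0.05, higher (left) or lower (right) after F5446, under 4 scalings of the arrays. The small subunit bar for rises is below the large subunit bar as deposited (27.8% and 37.1%) and above it after centring on the named genes (77.8% and 48.6%).

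Other genes of the same system were taken from lists. FAU, which encodes a small subunit protein fused to a ubiquitin-like domain and falls outside the symbol rule, gave 7.72 and 7.64 in F5446 cells, against 7.08 and 7.07 in Ctrl cells. It rose 1.53-fold (adjusted p = 0.00047). Of 25 listed further TOP transcripts 15 were measured, of which 10 rose (66.7%, against 18.2% of all named genes) and 0 fell (0 at an unadjusted p under 0.05 too, against 22.7% in limma's adjusted test of all named genes), with a median of 0.44. Among the 10 rises were the non-coding transcripts ZFAS1, EPB41L4A-AS1, SNHG8, GAS5 and SNHG5. EEF1A1, EEF1D, EEF1G, HNRNPA1 and BTF3 did not pass. All of these but ZFAS1 were chosen after their values were seen. Without an intensity trend 6 of the 15 rose (40%, against 16.1% of all named genes). Among bright genes tested alone, 9 of 12 rose (75%, against 40.3% of all bright genes) and 0 fell (against 38.6%). ZFAS1, a non-coding host of small nucleolar RNAs, gave 11.91 and 11.86 in F5446 cells, against 10.80 and 10.79 in Ctrl cells and rose 2.13-fold (adjusted p = 2.11e-07). VIM, which encodes the filament protein vimentin, rose 2.08-fold and NACA, a chaperone at the tunnel exit, rose 1.93-fold. EEF2, the translocation factor, rose 1.21-fold, while EEF1A1, which delivers tRNA, had a log2 fold change of 0.08 (adjusted p = 0.479); these were chosen after their values were seen.

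Genes that control TOP translation changed in both directions. Of 22 listed genes 13 were measured, 8 of which rose (61.5%, against 18.2% of all named genes) and 2 fell (15.4%, against 22.7%), with a median of 0.44. Among bright genes tested alone, 7 of 10 rose (70%, against 40.3% of all bright genes) and 2 fell (20%, against 38.6%). SESN2, a leucine sensor that restrains mTORC1, gave 9.67 and 9.59 in F5446 cells, against 6.69 and 6.36 in Ctrl cells and rose 8.57-fold. DDIT4, a stress-induced mTORC1 inhibitor, rose 6.67-fold and TSC1, a subunit of the complex that switches off RHEB, rose 2.09-fold. RHEB itself, chosen after its values were seen, rose 1.62-fold. EIF4EBP2, a repressor of cap-dependent translation that mTORC1 inactivates, gave 10.50 and 10.50 in F5446 cells, against 11.50 and 11.47 in Ctrl cells (log2 fold change -0.99, adjusted p = 3.92e-07). Its relative EIF4EBP1 fell by 0.60 on the log2 scale. LARP1 was not measured.

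Of 19 listed chaperones and importers of ribosomal proteins 16 were measured. Of these 4 rose (25%, against 18.2% of all named genes) and 5 fell (31.2%, against 22.7%), with a median of 0.04. Tested among bright genes alone, 3 of 12 rose (25%, against 40.3% of all bright genes) and 6 fell (50%, against 38.6%). Whether these shares differ from the background was not tested. IPO9, an importin, gave 9.09 and 8.83 in F5446 cells, against 10.31 and 10.21 in Ctrl cells (log2 fold change -1.29, adjusted p = 3.7e-06). GRWD1, the chaperone of RPL3, and HEATR3, which helps bring RPL5 and RPL11 into the nucleus, fell by 1.17 and 1.13 on the log2 scale. The importers TNPO1 and IPO7 rose 1.43-fold and 1.39-fold. The 1.64-fold rise of NAP1L1 (adjusted p = 0.0324) missed the threshold without Ctrl replicate 2 (0.11), F5446 replicate 1 (0.176) or F5446 replicate 2 (0.21), and the log2 fold change of NAP1L1 was 0.30 without Ctrl replicate 2 and 1.14 without Ctrl replicate 1, in place of 0.72.

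Ribosomal protein pseudogenes with their own named probe sets numbered 25. Of these 6 rose (24.0%, against 18.2% of all named genes) and 2 fell (8%, against 22.7%), with a median of 0.05, and their signal may include RNA of the parent genes. RPS15AP10 gave 6.32 and 5.75 in F5446 cells, against 3.66 and 3.80 in Ctrl cells. It rose (adjusted p = 1.73e-05), but the Ctrl values lie below the median of all probe sets, so no fold is given, while the parent gene RPS15A did not pass (log2 fold change 0.18). RPL23AP87 rose 2.58-fold and RPL32P3 rose 2.43-fold, beside a log2 fold change of 0.16 for RPL32, which did not pass. RPL13P5 fell by 0.83 on the log2 scale. RPL23AP82 had a log2 fold change of -0.38 (adjusted p = 0.0354), a call lost whichever array was left out (0.0552 to 0.203) and turned in sign when the gene's probe sets were averaged (0.32). RPL23A and RPL13 had no named probe set.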

How the data were processed

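Log2 signal per probe set was used as deposited by the authors, with the log2 scale inferred from the range (0.71 to 13.78). Partek is the program named, per the submitters' processing notes. Background correction and normalization are not stated. The sample records name mouse, whereas the cells, by their growth protocol, and the annotated genes are human, and they were treated as such. Of 14884 named genes 779 had several probe sets, and the brightest stood for the gene. Precision is limited by the number of arrays.

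Group was fitted to all named genes in limma 3.58.1 (R 4.3.3) with a trended prior variance, and p-values were adjusted by Benjamini-Hochberg over the 14884 genes. The script was tested on simulated data. Members and lists were chosen with earlier results of these data known. Genes named are members that fell, the 10 largest rises, paralog pairs, RPL11, RPS3, RPS6 and RPS6KL1, and up to 3 changes each way per further list; any other is said to be chosen after its values were seen. Alternatives were 3 scalings, leaving out dim genes, bright genes only, untrended or robust variance, averaged probe sets, all probe sets, a replicate block, each array left out, and the list without RPS6KL1.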

Additional observations from a re-analysis of the deposited data

How the results depend on the processing

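The 18 rises and 5 falls became 31 and 1 with each array centred on its named genes, 8 and 1 without an intensity trend, and 9 and 1 with all probe sets tested. With 1 array left out, 9 to 12 genes rose and 1 to 4 fell. The median log2 fold change of the 54 symbols (0.15) was 0.28 after centring on the named genes, 0.12 after centring on all probe sets and 0.20 after quantile normalization. It was 0.14 to 0.15 with 1 array left out. The difference of mean changes, large against small subunit (0.0029), was 0.0184 after quantile normalization, 0.0161 with dim genes left out and -0.0088 with averaged probe sets. It ran from -0.0047 to 0.0105 with 1 array left out. For the paralog pairs: RPS27L minus RPS27 (0.45) ran from 0.0819 to 0.816 with 1 array left out. RPL26L1 minus RPL26 (-0.38) was -0.17 after quantile normalization and -0.62 to -0.14 with 1 array left out, and RPL10L minus RPL10 (-0.01) turned in sign, from -0.27 to 0.25. With 2 arrays a group, leaving out 1 moves a mean by no more than the replicate spread, so these ranges do not show stability. The cause of these moves was not tested.

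The replicate numbers are shared between the groups, but no label says that they pair the arrays. Deviations of Ctrl 1 and F5446 1 from their group means correlated at 0.04 across named genes and 0.11 across the 53 ribosomal proteins. With a replicate block 18 members rose and 5 fell (18.3% and 22.5% of all named genes), RPL34 lost its call (0.0618), RPL38 gained one (0.0431), and the median stayed at 0.15. Over single members and alternatives, 82 calls were lost, 29 were gained and 627 were kept or stayed absent, and no called member turned in direction.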
